A study of Mus musculus with 18 samples.

Results

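The nuclear genes for the proteins of the mitochondrial ribosome were followed in mouse embryonic stem cells (ESCs) that differentiated with or without thalidomide. Members were all genes whose symbol begins with Mrpl (large subunit) or Mrps (small subunit) followed by a number, each read from its brightest probe set among those annotated with 1 gene symbol. They came to 71 of the 22180 genes measured, 43 of the large and 28 of the small subunit, and all were annotated as protein coding. Of 78 protein-coding RefSeq genes that meet the same rule, 7 lay only on probe sets annotated with several genes (Mrpl30, Mrpl33, Mrpl41, Mrpl43, Mrpl44, Mrpl53 and Mrps6) and were not analysed here.

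The mitochondrial ribosome, or mitoribosome, translates the few messenger RNAs of the mitochondrial genome, which encode core subunits of the respiratory chain and the ATP synthase. Its RNAs come from the mitochondrial genome, but all its proteins are encoded in the nucleus, made in the cytosol and imported. Many of these proteins have a counterpart in bacterial ribosomes and others are found only in mitochondria, where they surround a shortened ribosomal RNA. Pluripotent cells rely largely on glycolysis, and respiration generally gains in weight as they differentiate.

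Thalidomide, a drug known for causing limb and other malformations in human embryos, was given to embryoid bodies, which are aggregates of differentiating ESCs of the C57BL/6 mouse strain. Exposed cultures received 0.25 mM thalidomide from day 3 and were taken after 24 h, 48 h and 72 h, with 3 arrays at each time. Control cultures of the same strain are labelled with the same 3 times, with 3 arrays each, and received the vehicle, 0.25% DMSO, by the treatment label, whereas the study's design text calls them unexposed. Their source labels count the hours from embryoid body formation and those of the exposed cultures from exposure, so the labels do not settle whether the times match. This gave 18 arrays in 6 groups, hybridised to Affymetrix whole-transcript arrays and given as log2 signals after robust multi-array averaging (RMA). The labels call replicates biological but do not say what was repeated, so p-values measure the spread between these arrays. A tag for re-analysis stands in 12 of the 18 array titles and is missing from the 6 titles of cultures exposed for 48 h or 72 h, so at those times tag and exposure cannot be told apart.

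Array medians over all probe sets lay between 5.367 and 5.462, and arrays of 1 group correlated at 0.992 to 0.9959 over all genes measured. The mean over 6 pluripotency markers was 7.43 to 7.56 in exposed and 7.62 to 7.76 in control arrays of 24 h, and 6.22 to 6.52 and 6.18 to 6.34 at 72 h. These markers did not move together. At 24 h the log2 change under exposure was -0.75 in Tdgf1, -0.52 in Nanog and -0.31 in Pou5f1. It was 0.18 in Sox2, 0.08 in Zfp42 and 0.05 in Dppa5a, and only Tdgf1 passed (limma adjusted p = 0.0432). In control cultures Sox2 rose by 1.03 from 24 h to 72 h. The mean over 3 markers of primitive streak and nascent mesoderm at 24 h was 8.09 ± 0.08 in exposed and 8.46 ± 0.06 in control arrays (SD, n = 3 each). The mean over 4 cardiac muscle markers at 72 h was 7.46 to 8.68 in exposed and 9.16 to 9.23 in control arrays. Their changes were -1.45 in Actc1, -1.23 in Myl7, -1.13 in Tnnt2 and -0.06 in Nkx2-5, and none passed. Means at 72 h were also lower over 5 markers of endothelium and blood (5.96 to 6.53 in exposed, 6.56 to 6.64 in control arrays). They were higher over 3 neural ectoderm markers (6.62 to 7.37 in exposed, 5.94 to 6.56 in control arrays). The part of these markers in the members' changes was not tested. Because each culture was measured in bulk, fewer cells of a type and less RNA per cell cannot be told apart, and no array value gives the amount of RNA per cell.

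The members that changed most at 24 h of exposure were Mrpl34 (probe set 17502191), Mrps21 (probe set 17407926) and Mrpl52 (probe set 17300273). Mrpl34 is the counterpart of bacterial ribosomal protein L34 in the large subunit, Mrps21 that of bacterial S21 in the small subunit, and Mrpl52 is a large-subunit protein found only in mitochondria. The 250 bases before their annotated starts are shown, from RefSeq on build GRCm38.p6, to let the start regions of the leading members be compared. They run 5′ to 3′ on the strand of the gene, at chr8:71464676-71464925 on the plus strand for Mrpl34, chr3:95871515-95871764 on the minus strand for Mrps21 and chr14:54426659-54426908 on the plus strand for Mrpl52. Capitals mark the letters CCGGAAG or their reverse complement CTTCCGG, a core to which ETS-family factors such as GABP are known to bind.
Mrpl34: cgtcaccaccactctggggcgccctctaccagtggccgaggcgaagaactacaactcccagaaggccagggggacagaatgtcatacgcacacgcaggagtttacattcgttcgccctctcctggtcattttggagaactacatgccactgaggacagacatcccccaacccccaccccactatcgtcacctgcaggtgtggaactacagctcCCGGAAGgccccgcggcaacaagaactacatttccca
Mrps21: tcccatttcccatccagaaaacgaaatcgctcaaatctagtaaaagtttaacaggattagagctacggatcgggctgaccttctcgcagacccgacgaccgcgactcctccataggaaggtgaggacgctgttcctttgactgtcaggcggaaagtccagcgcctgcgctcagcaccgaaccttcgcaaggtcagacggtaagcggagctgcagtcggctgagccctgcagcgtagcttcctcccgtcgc
Mrpl52: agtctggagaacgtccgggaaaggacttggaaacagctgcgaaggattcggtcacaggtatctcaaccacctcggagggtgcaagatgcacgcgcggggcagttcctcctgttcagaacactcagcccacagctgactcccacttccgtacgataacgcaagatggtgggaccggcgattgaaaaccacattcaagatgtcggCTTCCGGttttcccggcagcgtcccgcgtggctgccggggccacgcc
The match lay 37 bases before the start of Mrpl34 on the strand of the gene, and 47 bases before that of Mrpl52 on the opposite strand. None of the shown bases of Mrps21 held these letters, and its match lay in or across the 50 bases after the start.

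Promoters of 62 members (68 promoters) were listed by RefSeq, each from 250 bases before to 50 bases after a start. The letters CCGGAAG, searched on both strands, were in 33.8% of the members' promoters and in 8.86% of all 32851. TGCGCA, its own reverse complement and part of the site of NRF1, a nuclear regulator of mitochondrial genes, was in 29.4% of the members' promoters and 7.76% of all. ATGGCGG or CCGCCAT, the core bound by YY1, was in 17.6% and 4.05%. None of the 3 motifs is part of another, though matches may overlap in a promoter, and at least 1 of them was in 61.8% of the members' promoters and 18.1% of all. Among the 20 promoters of members that fell at 24 h, 40% held CCGGAAG, 35% TGCGCA and 5% ATGGCGG, and among the 48 of the other members 31.2%, 27.1% and 22.9%. These shares describe letters, and base composition was not matched.

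After 24 h of exposure, transcripts of both subunits were lower. The mean over the 43 large-subunit members was 7.47, 7.53 and 7.54 in exposed arrays and 7.75, 7.71 and 7.77 in control arrays. The mean over the 28 small-subunit members was 7.33, 7.36 and 7.34 in exposed arrays and 7.55, 7.52 and 7.62 in control arrays. In both subunits every exposed array lay below every control array.

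Of the 71 members, 23 fell at 24 h and none rose (limma, adjusted p under 0.05 over all genes). This is 32.4% of the members, where 5.43% of all genes fell and 1.42% rose. Their median change was -0.19 on the log2 scale, against -0.01 over all genes, and 67 of the 71 estimates were below 0. In 44 members all 3 exposed arrays were below all 3 control arrays, and the same held for 15.9% of all genes. The large subunit had 15 of 43 members that fell (34.9%, median -0.19) and the small subunit 8 of 28 (28.6%, median -0.20). Structural work on mammalian mitoribosomes places Mrps30 and Mrps18a in the large subunit despite their names, and with them moved the counts were 15 of 45 and 8 of 26. The 41 members with a bacterial counterpart and the 30 found only in mitochondria had 12 and 11 that fell, with medians of -0.19 and -0.21. The difference between the subunits or between these classes was not tested.

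**Figure D1:**
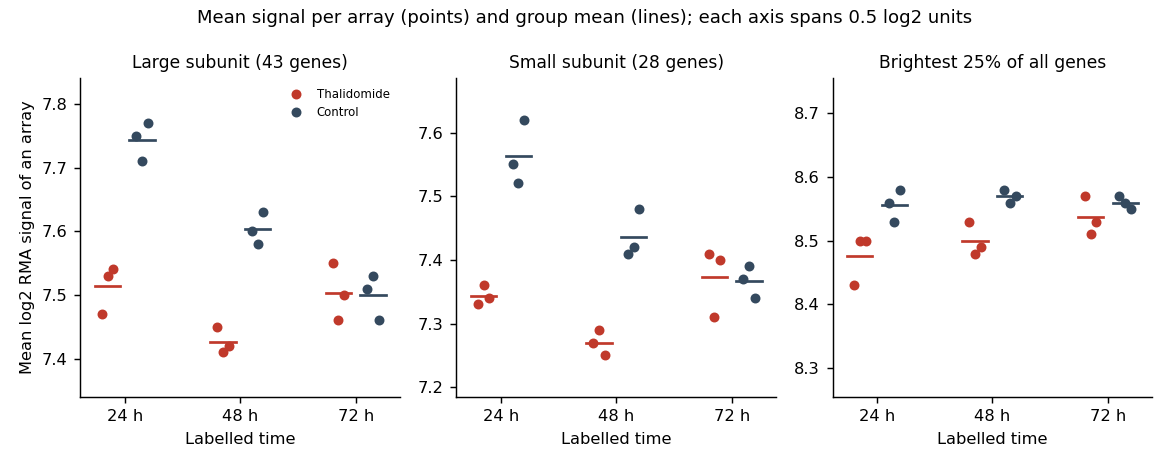
Mean log2 signal of each array (points) over the large-subunit members, the small-subunit members and the brightest 25% of all genes, by time, with thalidomide left of control and lines at the group means; each axis spans 0.5 log2 units. Exposed arrays lie below control arrays at 24 h and 48 h and overlap with them at 72 h, in both subunits and also in the brightest 25% of genes.

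Mrpl34 read 8.02, 7.92 and 7.77 in exposed arrays of 24 h, against 8.62, 9.02 and 8.65 in control arrays. The groups were far apart, and the change was -0.86 ± 0.11 (SE, n = 3 arrays each, limma adjusted p = 0.000533), or 1.82-fold lower. Mrps21 read 6.93, 7.18 and 7.05 in exposed and 7.81, 7.77 and 7.87 in control arrays. It fell by 0.76 with no overlap (SE 0.09, adjusted p = 0.000172). Mrpl52 read 8.76, 8.96 and 8.95 in exposed and 9.56, 9.57 and 9.48 in control arrays, a change of -0.65 ± 0.07 (SE, limma adjusted p = 0.000172). For each of these genes the gap between the groups exceeded the range within either.

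Mrpl21, the counterpart of bacterial L21, read 7.78, 7.83 and 7.83 in exposed arrays, against 8.44, 8.33 and 8.28 in control arrays, and fell by 0.54. Mrps33, a small-subunit protein found only in mitochondria, read 6.83, 7.01 and 7.15 in exposed and 7.49, 7.50 and 7.53 in control arrays, and fell by 0.51. Exposed arrays of Mrps33 were more spread than its control arrays, but none reached them. Mrpl10, which with Mrpl11 forms the base of the stalk that recruits translation factors, read between 7.99 and 8.07 in the 3 exposed and 8.44, 8.56 and 8.50 in the control arrays. Mrpl10 fell by 0.48 on this probe set, while its other, dimmer probe set changed by -0.11.

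The next members by size were Mrpl49 (-0.47), Mrpl19 (-0.43), Mrpl57 (-0.40) and Mrpl36 (-0.39). Mrpl19 and Mrpl36 have bacterial counterparts, and Mrpl49 and Mrpl57 do not. Mrpl49 read 7.88, 8.27 and 8.35 in exposed and 8.55, 8.65 and 8.73 in control arrays, so that its lowest array stood well apart from the other two, and it did not pass without control replicate 3. Mrpl36 was close to the threshold (limma adjusted p = 0.0494), it did not pass with any of 5 of the 6 arrays left out, and its other probe set changed by -0.10. Mrpl57 did not pass without control replicate 1, control replicate 3, exposed replicate 1 or exposed replicate 3. The other 13 members that fell changed by -0.38 to -0.23 and included Mrps22, in which mutations cause a deficiency of oxidative phosphorylation in humans, Mrps24 and Mrpl11. Mrps22 did not pass without control replicate 1 or 3 or exposed replicate 1 or 2. Mrpl47 changed by -0.30 on the probe set used and by -0.83 on its other one. The 48 members that did not pass had changes of -0.38 to 0.15, and Mrpl27 and Mrpl2 had the highest estimates, 0.15 and 0.12.

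**Figure D2:**
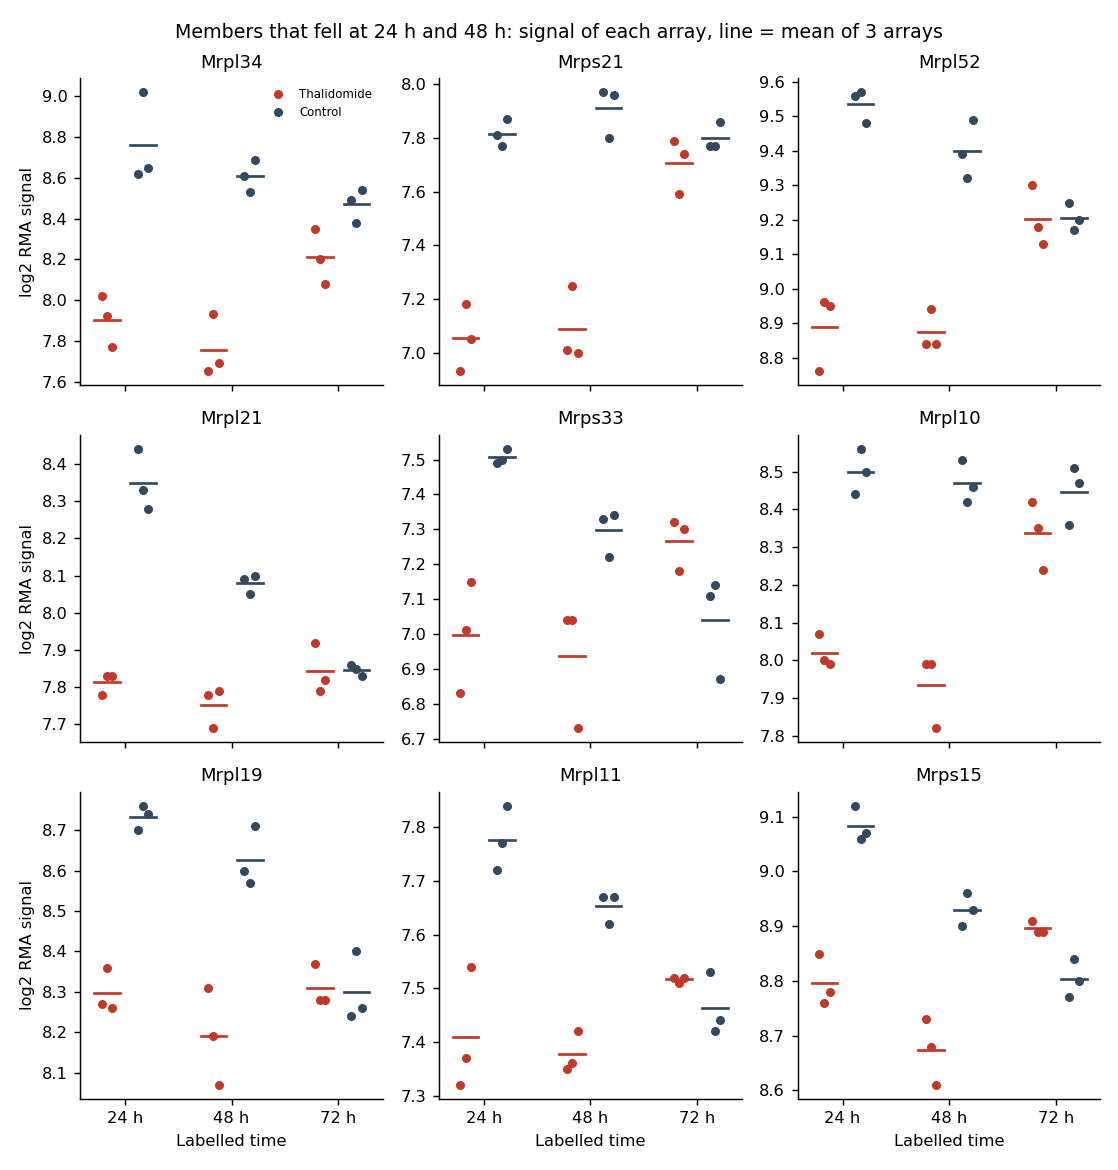
Log2 RMA signal of each array (points) and group mean (lines) for the 9 members that fell at both 24 h and 48 h, by time, with thalidomide left of control. Exposed arrays lie below control arrays at 24 h and 48 h in all 9, and in 6 of them the 72 h groups overlap.

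The count at 24 h depended on single arrays more than its direction did. It was 12 without exposed replicate 1, 12 without control replicate 1 and 11 without control replicate 3. Exposed replicate 1 had the lowest array weight, 0.507, and the highest mean over 73 small nucleolar RNAs, 8.99, where the other exposed arrays had 8.74 and 8.76 and control arrays 8.58 to 8.62. The part of this difference between arrays in the members' change was not tested.

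Bright probe sets as a whole read lower in exposed arrays, which matters here because 48 of the 71 members were in the brightest 25% of genes. In that class 18 of 48 members (37.5%) fell at 24 h, against 13.3% of all its genes, with medians of -0.21 and -0.08. In the next 25% by signal 4 of 19 members (21.1%) fell, against 7.23% of its genes, and of the 4 members in the dimmer 50% 1 fell. After cyclic loess between arrays, which brought the median of the brightest 25% of genes to 0.01, 12 members (16.9%) fell against 2.7% of all genes, and the members' median was -0.11. By subunit these were 9 of 43 large-subunit members (20.9%) and 3 of 28 small-subunit members (10.7%). Over all genes, 79.2% of those that passed at 24 h had fallen on the deposited scale and 57.3% after cyclic loess. At 48 h these shares were 69.6% and 59.4%.

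After 48 h of exposure 12 members fell and none rose. This is 16.9% of the members, where 4.23% of all genes fell and 1.85% rose. The mean over the large subunit was 7.45, 7.41 and 7.42 in exposed arrays and 7.60, 7.58 and 7.63 in control arrays, and over the small subunit 7.27, 7.29 and 7.25 in exposed and 7.41, 7.42 and 7.48 in control arrays, again without overlap. The mean over the brightest 25% of genes did not overlap either, at 8.48 to 8.53 in exposed and 8.56 to 8.58 in control arrays. The members' median change was -0.15, against 0.01 over all genes, and 59 of 71 estimates were below 0. All 3 exposed arrays were below all 3 control arrays in 37 members, and in 16.9% of all genes. The large subunit had 8 of 43 members that fell (18.6%, median -0.14) and the small subunit 4 of 28 (14.3%, median -0.16). In the brightest 25% of genes 8 of 48 members (16.7%) fell against 9.41% of its genes, and after cyclic loess 7 of the 71 (9.86%) fell against 2.73% of all genes, with 6 of 43 in the large and 1 of 28 (3.57%) in the small subunit.

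Mrpl34 and Mrps21 had the largest changes at 48 h again. Mrpl34 read 7.65, 7.93 and 7.69 in exposed and 8.61, 8.53 and 8.69 in control arrays, and changed by -0.85 ± 0.11 (SE, limma adjusted p = 0.000893). Mrps21 read 7.01, 7.25 and 7.00 in exposed and 7.97, 7.80 and 7.96 in control arrays, and changed by -0.82 ± 0.09 (SE, limma adjusted p = 0.000151). Neither gene overlapped between groups. Mrpl52 read 8.84, 8.94 and 8.84 in exposed and 9.39, 9.32 and 9.49 in control arrays, and fell by 0.53 (adjusted p = 0.00109). Mrpl10 fell by 0.54, Mrpl19 by 0.43, Mrps33 by 0.36, Mrpl21 by 0.33, Mrpl11 by 0.28 and Mrps15 by 0.26. The other, dimmer probe set of Mrpl10 changed by -0.06. Mrps15, the counterpart of bacterial S15, a protein that binds the small ribosomal RNA early in assembly, read 8.73, 8.68 and 8.61 in exposed and 8.90, 8.96 and 8.93 in control arrays.

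These 9 members fell at both times, which is 39.1% of the 23 that fell at 24 h and 75% of the 12 that fell at 48 h. The other 3 that fell at 48 h were Mrpl32 (-0.66), Mrpl16 (-0.36) and Mrps35 (-0.28), whose estimates at 24 h were -0.38, -0.32 and -0.18 and did not pass. Mrpl32, which is known in yeast and mouse to be cleaved by the inner-membrane m-AAA protease before it enters the large subunit, read 6.62, 6.11 and 6.36 in exposed and 6.94, 7.11 and 7.00 in control arrays. Its exposed arrays spread over more than its control arrays, without reaching them. All 23 members that fell at 24 h had estimates below 0 at 48 h, and their median was -0.26 at 48 h and -0.37 at 24 h, the value at 24 h being the one they were chosen on. The matching shares among all genes that fell are not given here. This overlap and these signs alone therefore do not show a trait of the members. In all, 26 members fell at 1 or both times and 45 at neither. Of the members that fell at 48 h, Mrpl34, Mrps21, Mrpl52, Mrpl10, Mrpl19, Mrpl21 and Mrpl32 passed with each array of 48 h left out in turn, and Mrpl11, Mrpl16, Mrps15, Mrps33 and Mrps35 did not.

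**Figure D3:**
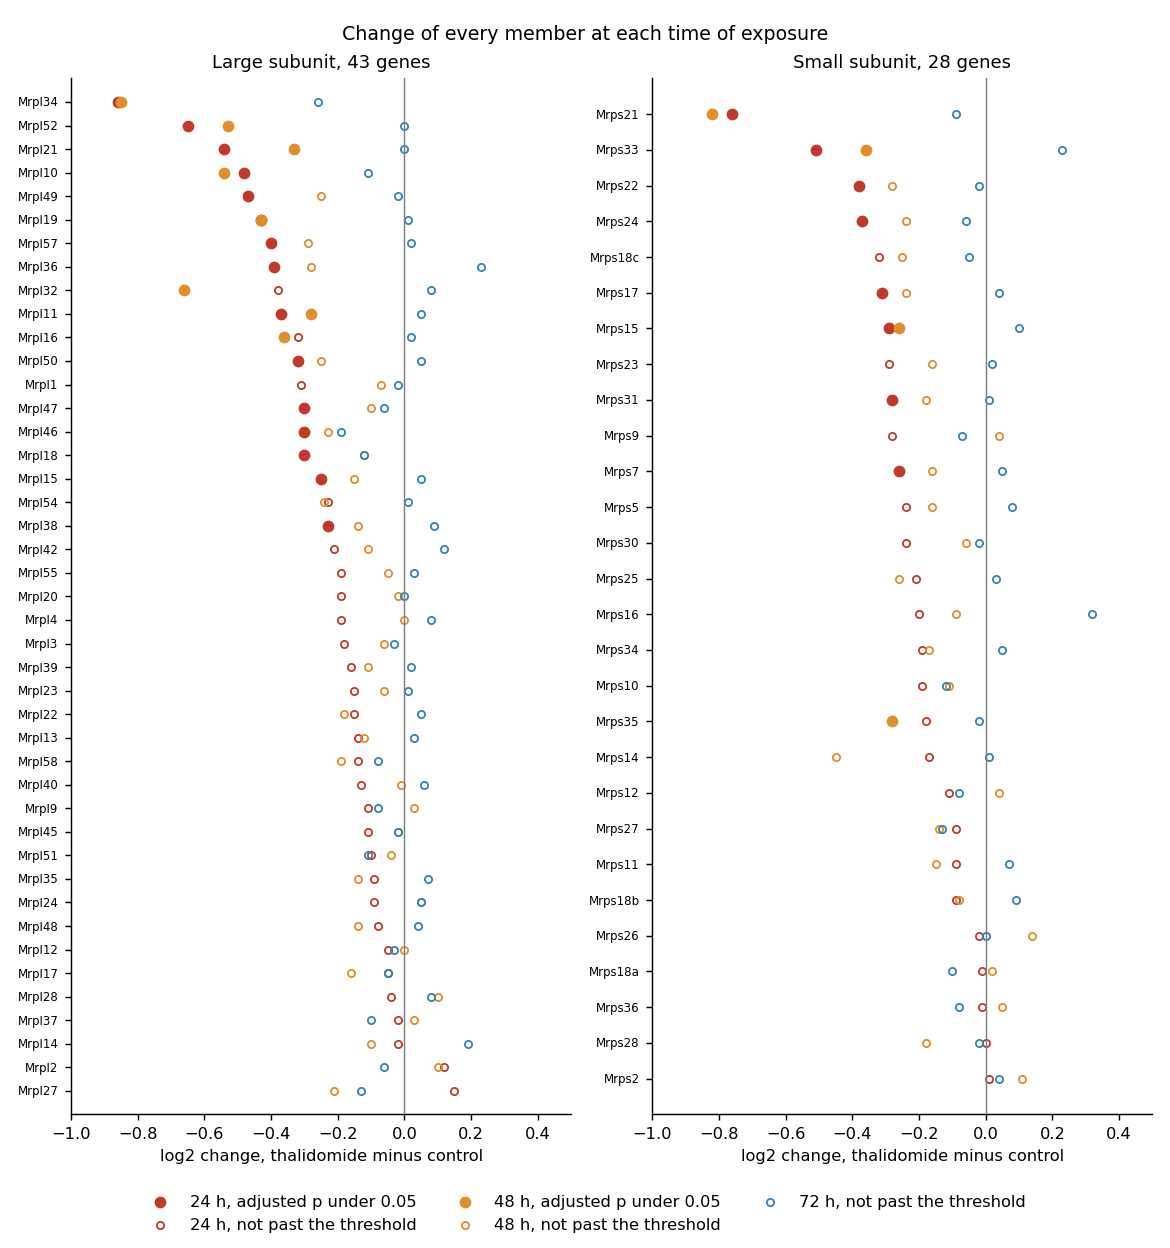
Log2 change, thalidomide minus control, of each of the 71 members at 24 h, 48 h and 72 h, by subunit and ordered by the change at 24 h; filled points passed at an adjusted p under 0.05 in limma. Most 24 h and 48 h points lie left of 0, from -0.86 to 0.15, and the 72 h points lie around 0, from -0.26 to 0.32.

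After 72 h of exposure no member passed the test, and of all genes 0.00902% did (2 genes, limma). At an unadjusted p under 0.05, 4 members passed (5.63%), where 9.12% of all genes did. The median over the members was 0.01 and the range -0.26 to 0.32. The mean over the large subunit was 7.55, 7.46 and 7.50 in exposed and 7.51, 7.53 and 7.46 in control arrays, and over the small subunit 7.41, 7.31 and 7.40 in exposed and 7.37, 7.39 and 7.34 in control arrays, with overlap in both. All exposed arrays were below all control arrays in 2 members, where the share of all genes was 7.51%, and above them in 6, where the share of all genes was 7.27%. The members with the smallest p were Mrps16 (0.32, adjusted p = 0.308), Mrpl34 (-0.26, adjusted p = 0.486) and Mrps33 (0.23, adjusted p = 0.503). Mrps16, the counterpart of bacterial S16, read 7.97, 7.79 and 7.82 in exposed and 7.72, 7.53 and 7.37 in control arrays, while its other probe set changed by 0.04. Mrpl34 read 8.35, 8.20 and 8.08 in exposed and 8.49, 8.38 and 8.54 in control arrays, so that its groups still did not overlap. Mrps21 read 7.79, 7.59 and 7.74 in exposed and 7.77, 7.77 and 7.86 in control arrays, with overlap.

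The change of the exposure effect between times was tested as a difference of differences. Between 24 h and 48 h no member passed and 0% of all genes did (limma), while 3 members (4.23%) and 7.67% of all genes were under 0.05 without adjustment. The 2 members with the smallest p were Mrps9 (0.32, adjusted p = 0.582) and Mrpl21 (0.21, adjusted p = 0.585). From 24 h to 72 h the effect of 5 members moved up, where 0.383% of all genes moved up and 0.113% down. They were Mrpl52 (0.64 ± 0.10 SE, limma adjusted p = 0.015), Mrpl21 (0.54 ± 0.09, adjusted p = 0.015), Mrps21 (0.67 ± 0.12, adjusted p = 0.026), Mrps33 (0.73 ± 0.14, adjusted p = 0.0327) and Mrps15 (0.38 ± 0.08, adjusted p = 0.0419). From 48 h to 72 h the effect of 1 member, Mrps21, moved up by 0.73 (adjusted p = 0.0303), where 0.0631% of all genes moved up and 0.0316% down. These contrasts share the arrays of the tests at each time. Without control replicate 3 of 72 h none of the 5 passed, and Mrps15 passed with none of the 12 arrays left out. Mrps21 passed between 48 h and 72 h only when exposed replicate 2 of 48 h or of 72 h was the array left out.

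In control cultures many members were lower at 72 h than at 24 h. From 24 h to 72 h, 37 members fell in control cultures and 1 rose, where 14.3% of all genes fell and 13.1% rose. The median over the members was -0.24, against -0.04 over all genes, and it was -0.23 after cyclic loess. The large subunit had 25 of 43 members that fell (median -0.26) and the small subunit 12 of 28 (median -0.18). From 24 h to 48 h 13 members fell, where 6.7% of all genes did, and from 48 h to 72 h 5 fell, where 2.9% did. Mrps18b, 1 of 3 mouse homologues of bacterial S18, had the largest change. It read 7.40, 7.45 and 7.51 in control arrays of 72 h and 8.29, 8.21 and 8.35 in those of 24 h, and fell by 0.83 (limma adjusted p = 2.55e-07), while its other probe set changed by -0.41. Mrpl42 and Mrps30, both without a bacterial counterpart, fell by 0.53 and 0.51. Mrpl21 fell by 0.51, Mrps33 by 0.47 and Mrpl35 by 0.47.

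The only member that rose in control cultures was Mrps36, the dimmest, at 4.07, 4.38 and 4.33 in arrays of 72 h and 3.66, 3.74 and 4.00 in those of 24 h (0.46, adjusted p = 0.0323), and it did not pass without control replicate 1 or 2 of 24 h, or 2 or 3 of 72 h. Its protein is also known as a component of the 2-oxoglutarate dehydrogenase complex. Of the 23 members that fell under exposure at 24 h, 15 also fell in control cultures between 24 h and 72 h. Of the 9 members that fell at both times under exposure, Mrps21, Mrpl10 and Mrpl34 did not pass there (-0.02, -0.06 and -0.30). Both comparisons contain the control arrays of 24 h, and the matching overlap among all genes is not given here.

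In exposed cultures the mean over the members was lower at 48 h than at 24 h and 72 h, and single members changed in both directions. From 24 h to 72 h, 5 members rose (7.04%) and 10 fell (14.1%), where 14.4% of all genes rose and 10.6% fell. The members' median was 0.01. The share that fell was thus near that over all genes, and the share that rose was lower. The members that rose were Mrps21 (0.65), Mrpl49 (0.48), Mrpl14 (0.36), Mrpl52 (0.32) and Mrpl10 (0.32), and those that fell most were Mrps18b (-0.65), Mrpl37 (-0.52) and Mrpl2 (-0.49). From 24 h to 48 h 4 members fell (5.63%), where 4.36% of all genes did, and 56 of the 71 estimates were below 0, against 50.2% over all genes. From 48 h to 72 h, 8 members rose (11.3%), where 6.42% of all genes did, and 3 fell (4.23%), where 3.76% did. Of the 71 estimates 22 were below 0, against 53.8% over all genes. Falls near the share over all genes do not show a trait of the members. Within the exposed cultures the re-analysis tag separates 24 h from both later times. The mean over all 71 members was 7.41, 7.46 and 7.46 in exposed arrays of 24 h, 7.38, 7.37 and 7.35 in those of 48 h, and 7.49, 7.40 and 7.46 in those of 72 h. All 3 arrays of 48 h were below those of both other times. In control arrays it was 7.67, 7.64 and 7.71 at 24 h, 7.53, 7.52 and 7.57 at 48 h, and 7.45, 7.48 and 7.41 at 72 h. On the deposited scale the exposed arrays of 24 h thus lay in the range of the control arrays of 72 h. The mean over the brightest class of genes did not overlap there, at 8.43 to 8.50 and 8.55 to 8.57. After cyclic loess the members' median change was -0.11 under exposure at 24 h and -0.23 in control cultures from 24 h to 72 h. Whether the levels matched after cyclic loess was not tested.

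**Figure D4:**
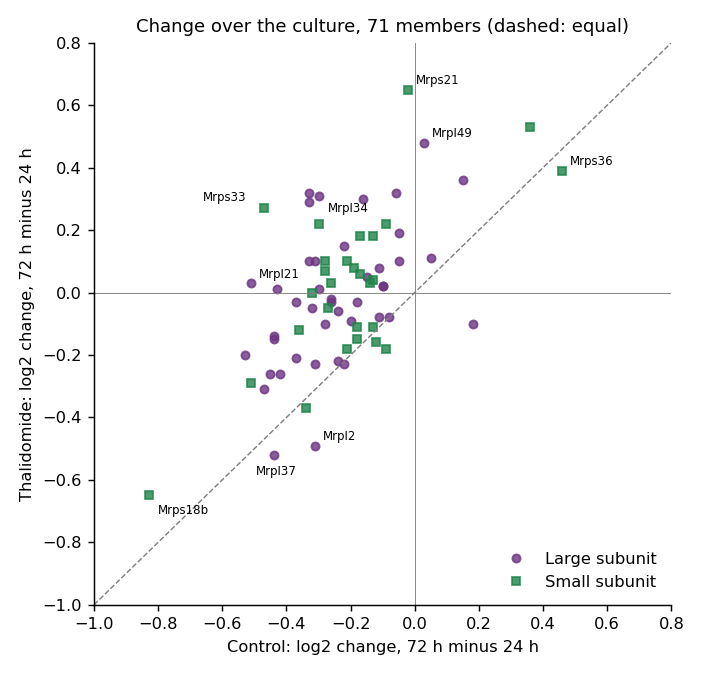
Log2 change from 24 h to 72 h of the 71 members in exposed cultures (vertical axis) against control cultures (horizontal axis), by subunit, with a dashed line where both are equal. Most members lie left of 0, with a control median of -0.24, and above the dashed line, with an exposed median of 0.01.

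The large subunit exceeded the small subunit in mean signal by 0.09 to 0.20 in all 18 arrays, which reflects probe sets as well as transcripts. By signal, probe sets ranged over 9.41 (Mrpl39), 9.19 (Mrpl52) and 8.86 (Mrpl24) at the bright end of the large subunit and 5.65 (Mrpl36), 5.73 (Mrpl27) and 6.02 (Mrpl48) at its dim end. In the small subunit the bright end was 8.86 (Mrps15), 7.91 (Mrps31) and 7.90 (Mrps7), and the dim end 3.96 (Mrps36), 5.34 (Mrps14) and 6.68 (Mrps18c). Signals of different probe sets are not on a common scale of transcript number.

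Other genes of mitochondrial translation were lower in part at 24 h. Of 77 listed symbols 70 were found under that name among the genes measured. Of these 70 genes 14 fell and none rose (20%, median -0.13), where 5.43% of all genes fell. After cyclic loess 5 of the 70 fell (7.14%, median -0.06), where 2.7% of all genes did. Among 12 translation factors 4 fell, led by the initiation factor Mtif3 (-0.35, adjusted p = 0.0155), the ribosome recycling factor Mrrf (-0.30) and the release factor Mtrf1l (-0.30). Among 23 assembly factors 5 fell, led by Mterf3 (-0.46), which is needed for mitoribosome assembly in mice, and including the GTPases Gtpbp10 (-0.36) and Eral1 (-0.33). Of 12 genes for mitochondrial transcription and its nuclear regulators 4 fell. The first 3 of them were the elongation factor Tefm (-0.71), the growth regulator Myc (-0.46) and Tfb2m (-0.42), which opens mitochondrial promoters. The genes of the factors named with the motifs did not pass. They were Nrf1 (-0.03), Gabpa (-0.13), Gabpb1 (-0.12) and Yy1 (-0.18). Of 19 mitochondrial aminoacyl-tRNA synthetases and amidotransferase subunits 1 fell, Gatc (-0.47). Mitoribosome proteins under other symbols were represented by 4 genes, with estimates of -0.17 to -0.10, and none passed. The smallest p among them was that of Dap3 (-0.17, adjusted p = 0.129).

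Of the 10 genes named here with a change that passed, Mterf3, Myc and Gatc passed with each array of 24 h left out in turn, and the other 7 did not.

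At 48 h 5 of the 70 genes fell and none rose (7.14%, median -0.06), where 4.23% of all genes fell. After cyclic loess 4 fell and 2 rose (median -0.02), where 2.73% of all genes fell. The 5 that fell on the deposited scale were Gatc (-0.44), Mtrf1l (-0.39), Mterf3 (-0.39), Eral1 (-0.38) and Mars2 (-0.27), the methionyl-tRNA synthetase. Of these Gatc and Mterf3 passed with each array of 48 h left out. At 72 h none passed, with a median of -0.01.

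Nuclear genes for respiratory chain and ATP synthase subunits had 24 of 78 that fell at 24 h (30.8%, median -0.20). At 48 h 15 of them fell and 1 rose (19.2% fell, median -0.16). After cyclic loess 13 fell and 1 rose at 24 h (16.7% fell, median -0.13), and 9 fell and 2 rose at 48 h (11.5% fell, median -0.11). Cytosolic ribosomal proteins had 7 of 66 that fell and 2 that rose at 24 h (10.6% fell, median -0.13), and 2 that fell and 4 that rose at 48 h (3.03% fell, median -0.05). After cyclic loess 4 fell and 2 rose at 24 h (median -0.09), and 3 fell and 5 rose at 48 h (median -0.03). The mean over the cytosolic ribosomal proteins was 8.79 to 8.84 in exposed and 8.90 to 8.93 in control arrays at 24 h, and 8.79 to 8.81 and 8.78 to 8.83 at 48 h. The differences between these gene classes were not tested.

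**Figure D5:**
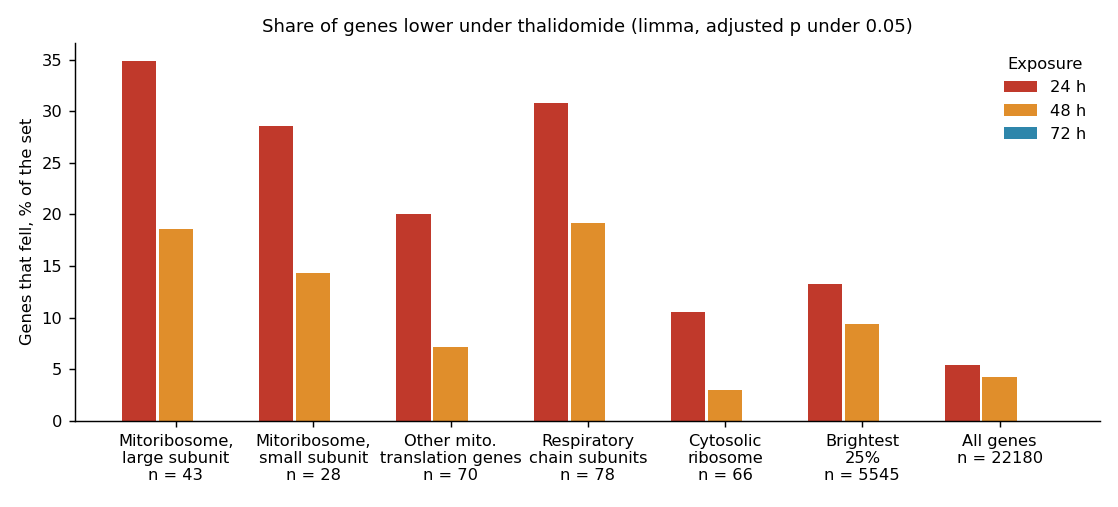
Share of genes that fell under thalidomide at 24 h, 48 h and 72 h (bars, % of each set, limma adjusted p under 0.05) in the mitoribosome subunits, other gene sets and all genes. At 24 h the shares were 34.9% and 28.6% in the subunits and 5.43% over all genes, and no gene of the sets other than all genes fell at 72 h.

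The genes next to the 9 members that fell at both times were read for comparison. Of 18 such neighbours, Dda1, beside Mrpl34 and known to encode a component of a ubiquitin ligase complex, fell at both times (-0.30, adjusted p = 0.0096 at 24 h, and -0.27, adjusted p = 0.02 at 48 h). Abhd8, on the other side of Mrpl34, did not pass (-0.17 at 24 h). Oscp1, beside Mrps15, fell at 48 h (-0.38, adjusted p = 0.0389), and the others passed at neither time. Over all genes 5.43% fell at 24 h and 4.23% at 48 h, so falls among 18 genes are not set apart from that share.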

How the data were processed

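Affymetrix whole-transcript arrays were read as the deposited series values, which are log2 signals made by the authors, per the submitters' processing notes, with the RMA method of Affymetrix Expression Console 1.3. RMA makes the arrays' distributions alike, so every change is relative to the other genes. The labels and file headers name no genome build for the array annotation, and the promoter sequences carry RefSeq's own build. Of 41345 probe sets, 23521 had 1 gene symbol, 1814 several and 16010 none in the platform annotation, and 23328 of the 23521 were matched to RefSeq. The brightest probe set stood for each of 22180 genes, and no signal filter was applied.

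Groups came from the sample labels. One limma model (limma 3.58.1, R 4.3.3) with a mean for each of the 6 groups was fitted to all 18 arrays, and two-sided p-values were adjusted (Benjamini-Hochberg) across all genes of a contrast, with a threshold of 0.05. The script was tested on simulated data. Tables and figures were made in Python 3.11.15 with pandas 2.3.3 and matplotlib 3.10.9. With 3 arrays a group, the number of arrays limits the precision.

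Members and lists were chosen with earlier results of these data known. Named were up to 10 members with the largest change that passed at each exposure time and direction (otherwise the 3 with the smallest p), up to 6 for the control course and for each difference between times (otherwise 2), the 3 brightest and dimmest of each subunit, Mrpl34, and up to 3 genes per pathway list. Mrpl14, Mrpl37, Mrpl2, Mrpl27, Mrpl47, Nrf1, Gabpa, Gabpb1, Yy1 and the members of the exposed course were chosen after their values were seen. Same-numbered exposed and control arrays did not deviate together. Alternatives were cyclic loess, the mean of a gene's probe sets, only genes no dimmer than the median, eBayes with trend and robust, array weights, the arrays of a contrast alone, a replicate block and leaving out each array.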

Additional observations from a re-analysis of the deposited data

Results flagged for a closer look

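The exposure effect differed between times in 6 tests of members. Between 24 h and 72 h it moved up by 0.64 in Mrpl52, 0.54 in Mrpl21, 0.67 in Mrps21, 0.73 in Mrps33 and 0.38 in Mrps15, as log2 differences. Between 48 h and 72 h it moved up by 0.73 in Mrps21. In Mrpl21 the exposed mean was 7.85 at 72 h and 7.81 at 24 h, and the control mean 7.85 at 72 h and 8.35 at 24 h. In Mrps21 the exposed mean was 7.70 at 72 h and 7.05 at 24 h, and the control mean 7.80 at 72 h and 7.81 at 24 h. None of the 5 passed between 24 h and 72 h without control replicate 3 of 72 h.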

How the results depend on the processing

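At 24 h 23 members fell; 12 did after cyclic loess (median -0.11), 5 with the arrays of that contrast alone and 11 to 20 with 1 array left out. At 48 h 12 fell; 7 did after cyclic loess (median -0.08), 20 when only genes no dimmer than the median were tested, 4 with the arrays of that contrast alone and 8 to 11 with 1 array left out. The medians with 1 array left out were -0.24 to -0.18 at 24 h, -0.16 to -0.12 at 48 h and -0.02 to 0.04 at 72 h. At 72 h, and for the change of the effect between 24 h and 48 h, 0 members passed under every alternative run. In control cultures 38 members passed, and 28 to 35 with 1 array left out, and the median was -0.25 to -0.22. The effect moved between 48 h and 72 h in 10 members when only those genes were tested, 9 with trend and robust eBayes, 4 with array weights, 0 with the arrays of those times alone and 0 to 1 with 1 array left out. Between 24 h and 72 h it moved in 14 members when only those genes were tested, 13 with trend and robust eBayes, 0 with the arrays of those times alone and 0 to 5 with 1 array left out. Shares over all genes under these alternatives are not given here, so these counts alone do not show a trait of the members. With the replicate number as a block, 20 members fell at 24 h and 11 at 48 h, and the effect moved in 0 members from 48 h to 72 h and in 3 from 24 h to 72 h. Same-numbered arrays correlated at -0.14 to 0.118 in their deviations from the group means. In 3 of 9 cases the exposed array correlated best with the control array of its own number. No pairing by number was seen, but deviations from means of 3 arrays cannot exclude it. Mrpl10, Mrpl21, Mrpl34, Mrpl52 and Mrps21 passed at 24 h under every alternative run, and all of these but Mrpl21 also at 48 h. No estimate that passed changed sign among the genes recomputed under the alternatives. The cause of these differences was not tested, except that fewer arrays or genes enter some fits by construction.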
